A study of Homo sapiens with 18 samples.

Results

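The genes described here are 47 genes of central carbon metabolism, chosen by their role: glucose transporters, glycolytic enzymes, the bifunctional PFK-2 enzymes that set the activator of phosphofructokinase, lactate dehydrogenases and lactate transporters, pyruvate dehydrogenase subunits and their kinases, and enzymes of the pentose phosphate pathway and the TCA cycle. They were looked up by symbol among 26485 gene symbols, and 47 of 47 were found and passed the filter on low counts, which 14011 symbols passed. RNA was measured in 3 human pancreatic ductal adenocarcinoma cell lines, BxPC3, Panc327 and SUIT2. Each line was given the vehicle DMSO or 100 nM THZ1 for 6 h, with 3 poly(A) RNA libraries in each of the 6 groups. The labels name no genetic change, so within a line THZ1 is the only stated difference between the groups. Each line is 1 model of the disease. The labels do not say whether libraries came from separate cultures, so a p-value measures only the spread between these libraries, which may be technical.

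Glucose enters the cell through SLC2A transporters, is trapped by hexokinase and is split and oxidised to pyruvate in glycolysis. Pyruvate is either reduced to lactate, which leaves through SLC16A transporters, or oxidised to acetyl-CoA by the pyruvate dehydrogenase complex and burned in the TCA cycle, while the pentose phosphate pathway draws glucose 6-phosphate off to make NADPH and ribose. Pancreatic cancer cells are known for a high use of glucose and for non-oxidative pentose synthesis, and many glycolytic genes are known targets of MYC and of the hypoxia-inducible factors. THZ1 binds covalently to CDK7, which as part of TFIIH phosphorylates RNA polymerase II early in transcription, and it also inhibits CDK12 and CDK13.

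Promoters are shown because most members moved together in BxPC3 and Panc327. RefSeq (GRCh38.p14) gave a promoter for 43 of the 47 members. The letters ACGTG, the core of the hypoxia-inducible factor site, were searched on both strands in the 250 bases before the annotated start, and they occurred in 13 of the 43 promoters (30.2%) against 18.7% of all 27305 promoters of that length. The E-box CACGTG, each copy of which also holds ACGTG, occurred in 9.30% of member promoters and in 6.49% of all. The GC box GGGCGG occurred in 67.4% and 42.3%, and TATAAA in 6.98% and 11.1%. These are descriptions of letters and not of bound sites. The last 120 bases before the start are printed for the 4 members whose window holds no annotated exon base: GAPDH, the oxidising enzyme of glycolysis, on the plus strand at chr12:6535144-6535263; PDK1, a kinase that switches off pyruvate dehydrogenase, on the plus strand at chr2:172555253-172555372; PFKFB3, which makes the activator of phosphofructokinase, on the plus strand at chr10:6144801-6144920; and PFKP, the platelet-type phosphofructokinase, on the plus strand at chr10:3067850-3067969. The GAPDH and PFKP windows lie inside the gene spans that GENCODE gives (chr12:6533927-6538374 and chr10:3066333-3137712). The RefSeq start used for them is therefore downstream of the first annotated base of the gene. The PDK1 and PFKFB3 windows lie before their gene spans. Capitals mark ACGTG on either strand, and GAPDH is the only 1 of the 4 windows that holds it, so the printed copy is within the gene.
GAPDH: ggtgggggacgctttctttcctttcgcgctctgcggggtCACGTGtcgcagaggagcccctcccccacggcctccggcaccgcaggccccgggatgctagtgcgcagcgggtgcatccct
PDK1: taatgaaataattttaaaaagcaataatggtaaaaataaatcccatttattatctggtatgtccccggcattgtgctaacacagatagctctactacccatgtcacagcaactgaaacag
PFKFB3: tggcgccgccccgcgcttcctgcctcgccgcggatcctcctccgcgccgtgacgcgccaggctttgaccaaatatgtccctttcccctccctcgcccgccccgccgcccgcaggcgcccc
PFKP: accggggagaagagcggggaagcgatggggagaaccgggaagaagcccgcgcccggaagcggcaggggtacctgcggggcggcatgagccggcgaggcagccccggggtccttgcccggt

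The libraries held 5626150 to 8631270 counts in genes. Levels are in CPM, counts scaled to a library total that was first adjusted by the trimmed mean of M-values (TMM). Epithelial markers (KRT8, KRT18, KRT19, EPCAM and CDH1) summed to 4821 to 4874 CPM with DMSO and 7588 to 7830 with THZ1 in BxPC3. The sums were 3718 to 3771 and 5302 to 5570 in Panc327, and 7034 to 7405 and 7342 to 8158 in SUIT2. The sum of 4 leukocyte markers was 22.2 to 25.4 CPM with DMSO and 35.6 to 40.7 with THZ1 in BxPC3, 12.2 to 13.4 and 25.3 to 29.8 in Panc327, and 42.0 to 48.7 and 41.1 to 45.5 in SUIT2. That of 5 fibroblast markers was 7.79 to 11.9 CPM with DMSO and 14.8 to 19.8 with THZ1 in BxPC3, 48.2 to 51.0 and 63.9 to 74.5 in Panc327, and at most 1.01 in SUIT2. That of 3 endothelial markers was 4.07 to 4.99 and 6.58 to 7.42 in BxPC3, 12.2 to 13.6 and 16.6 to 18.6 in Panc327, and 2.32 to 3.40 and 2.55 to 4.06 in SUIT2. That of 4 acinar markers was 0.112 to 2.49 CPM over all libraries. PTPRC was at 0 in 5 of the 6 groups and DCN in 6 of 6. The share of records that aligned to several places rose with THZ1 from 12.8% ± 0.609 to 22.8% ± 0.805 in BxPC3 and from 13.6% ± 0.149 to 52.8% ± 1.81 in Panc327, and it was 13.2% ± 0.726 and 12.9% ± 0.902 in SUIT2 (SD, n = 3). The part of this share, and of the marker sums, in the results was not tested. The TMM adjustment, used for the marker sums and all levels below, sets the median gene near 0 change. Its factors were 1.06 to 1.08 with DMSO and 0.810 to 0.820 with THZ1 in BxPC3. In Panc327 they were 1.08 with DMSO and 0.858 to 0.873 with THZ1. A lower factor gives a higher CPM for the same share of counts. In bulk RNA, fewer cells and less RNA per cell cannot be told apart.

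With DMSO the lines differed in the make-up of several enzyme and transporter families. Of the 47 members, 24 were higher and 16 lower in BxPC3 than in Panc327 (38.6% and 40.7% of all genes tested), 20 were higher and 21 lower in BxPC3 than in SUIT2 (38.9% and 39.7%), and 19 were higher and 24 lower in Panc327 than in SUIT2 (42.9% and 39.6%; edgeR quasi-likelihood test, adjusted p under 0.05). Per kilobase of exon, GAPDH led in every line, with 2383 ± 24.6 CPM per kilobase in BxPC3, 2613 ± 12.4 in Panc327 and 1854 ± 36.0 in SUIT2. PKM, ENO1, ALDOA, LDHB, LDHA and TPI1 followed in varying order, with TKT (233 ± 3.27) beside LDHA (228 ± 7.54) in BxPC3. PKM, the pyruvate kinase, was 4255 ± 76.6 CPM in BxPC3 and 2002 ± 19.1 in Panc327, and TALDO1, transaldolase, was 132 ± 3.04 and 68.4 ± 7.54.

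Among the transporters, SLC2A3 (GLUT3, a high-affinity glucose transporter; chr12:7919230-7936275 in GENCODE 29) was abundant in Panc327 alone. Its DMSO libraries read 223, 232 and 220 CPM in Panc327, 1.09, 0.610 and 0.331 in SUIT2, and 0, 0.113 and 0 in BxPC3, where it had 1 count in all. The Panc327 level was 337 times that of SUIT2 (95% interval 210 to 579) and 5816 times that of BxPC3 (1043 to 229754), intervals that cover counting error only. SLC2A14 is a close copy of SLC2A3, so reads may be split between them. SLC2A1 (GLUT1, the main glucose transporter of cancer cells) was 411 ± 3.40 CPM in BxPC3, 424 ± 11.5 in Panc327 and 155 ± 4.17 in SUIT2. SLC16A3 (MCT4, which exports lactate) was 174 ± 13.3 CPM in BxPC3, 56.5 ± 4.49 in Panc327 and 5.96 ± 1.34 in SUIT2, so that the log2 difference of BxPC3 from SUIT2 was 4.86 ± 0.09 (SE; adjusted p 3.04e-57).

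The PFK-2 enzymes and the pyruvate dehydrogenase kinases also differed in make-up between lines. PFKFB2 was 77.7 ± 1.53 CPM in BxPC3, 42.6 ± 3.45 in Panc327 and 7.48 ± 0.509 in SUIT2. In SUIT2, PFKFB3 made 89.7% ± 0.579 of the family's level per kilobase, against 46.5% ± 2.91 in BxPC3. PDK2 was 37.7 ± 1.51 CPM in SUIT2, 9.87 ± 1.60 in Panc327 and 2.83 ± 0.351 in BxPC3, and PDK3 was 39.1 ± 1.85, 6.76 ± 0.323 and 15.2 ± 1.10. ENO2, the neuronal enolase, was 61.7 ± 2.34 CPM in Panc327, 27.0 ± 1.84 in SUIT2 and 4.98 ± 0.583 in BxPC3. ALDOC, the brain aldolase, was also highest in Panc327, at 30.8 ± 0.231 CPM against 11.3 ± 1.26 in BxPC3 and 5.52 ± 0.568 in SUIT2. PFKP was highest in SUIT2 (394 ± 16.6 CPM, against 141 ± 1.81 in Panc327), as was IDH3G, a regulatory subunit of isocitrate dehydrogenase (83.3 ± 5.21 against 32.7 ± 3.15).

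**Figure D1:**
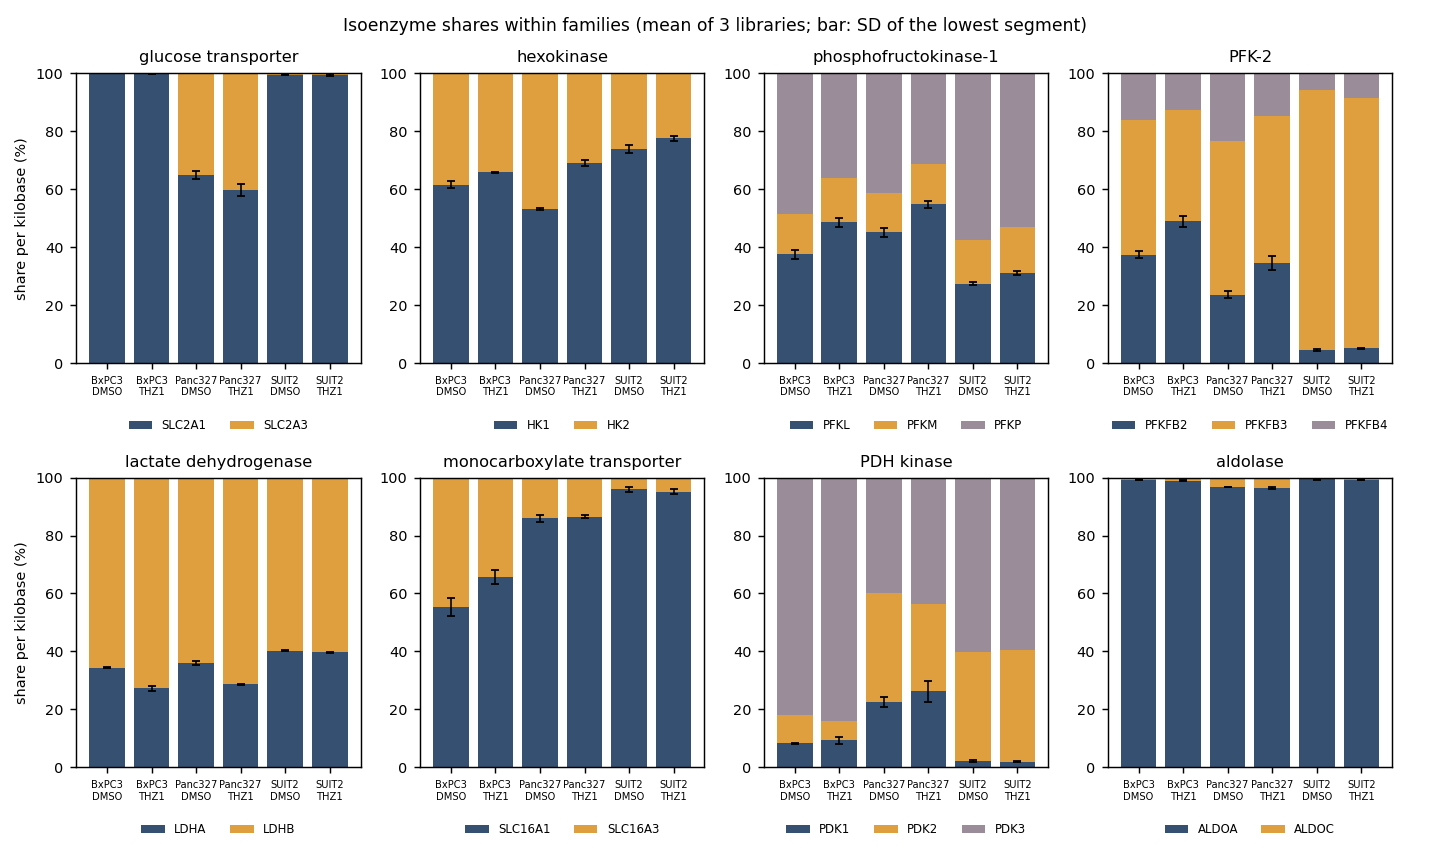
Share of each isoenzyme in its family's level per kilobase (percent, mean of 3 libraries), by line and treatment, for 8 families; the error bar is the SD of the lowest segment. SLC2A3 fills a visible part of the glucose transporter bar in Panc327 alone (35.1% with DMSO), PFKFB3 fills most of the PFK-2 bar in SUIT2 (89.7%), and the HK1 and PFKL segments are larger with THZ1 than with DMSO in all 3 lines.

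Most of these genes rose with THZ1 in BxPC3 and Panc327, relative to the median gene. Few rose in SUIT2, where few genes of any kind were called. In BxPC3, 35 of 47 members rose and 3 fell, where 35.2% of all tested genes rose and 34.1% fell. The 35 include SLC2A3, called on few counts, and PDHB, and both calls were lost under several alternatives. In Panc327, 37 rose and 7 fell, against 35.6% and 37.8% of all genes, and the number that fell was 3 with RLE size factors, with DESeq2 or without DMSO replicate 2. In SUIT2, 8 rose, 3 fell and 36 did not pass, against 6.95% and 7.64%, with 5 rises without DMSO replicate 1 or DMSO replicate 3 and 1 fall without DMSO replicate 2. The share of members that rose was 74.5% in BxPC3, 78.7% in Panc327 and 17.0% in SUIT2, above that of all genes in each line. The median log2 fold change of the members was 0.64 in BxPC3, 0.61 in Panc327 and 0.07 in SUIT2, beside 0.00, -0.01 and 0.01 over all genes. Regardless of direction, the median size of the log2 fold change over all genes was 0.58, 0.65 and 0.13, so SUIT2 changed least in general. The same 33 members rose in both BxPC3 and Panc327, as did 26.1% of all tested genes, and 7 members rose in all 3 lines, as did 3.62% of all.

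Over all tested genes, the median fold change was higher for abundant genes than for rare ones in BxPC3 and Panc327. Among the 2272 tested genes of at least 100 CPM, the median was 0.49 in BxPC3 and 0.44 in Panc327, and among the 11739 rarer genes it was -0.09 and -0.13. Among the 27 members of at least 100 CPM it was 0.78 and 0.73. Scaling to library size alone, without the TMM step, lowered the median of all genes to -0.35 in BxPC3 and -0.34 in Panc327. With it, 26 members rose and 12 fell in BxPC3, 28 rose and 13 fell in Panc327, and the members' median was 0.25 and 0.29. Directions here are therefore relative to the median gene. The shares of all genes given above are from the fit with TMM and do not apply to the counts with library size only. The members' summed counts made 2.42% ± 0.016 of all gene counts with DMSO and 3.32% ± 0.025 with THZ1 in BxPC3, 2.25% ± 0.004 and 3.11% ± 0.129 in Panc327, and 2.15% ± 0.034 and 2.22% ± 0.039 in SUIT2. In each line the 3 THZ1 libraries lay above the 3 DMSO libraries (exact permutation p 0.1, the smallest that 3 against 3 libraries allow).

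**Figure D2:**
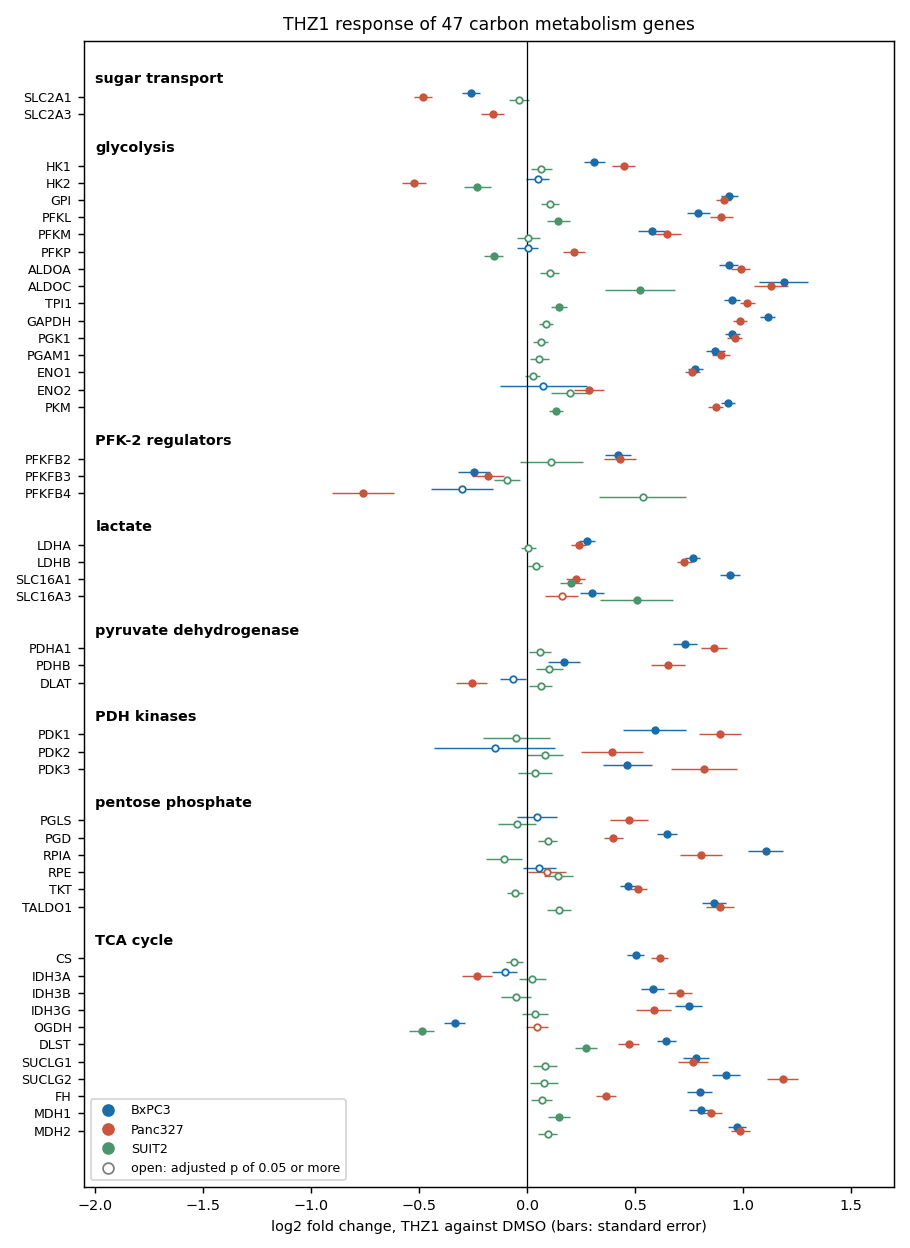
Log2 fold change with THZ1 (x axis, with its standard error) for the members, grouped by role and coloured by line; open points did not pass. SLC2A3 is drawn for Panc327 only, because of its low counts elsewhere. BxPC3 and Panc327 points lie mostly right of 0 (medians 0.64 and 0.61), SUIT2 points near 0 (median 0.07), and SLC2A1, PFKFB3 and PFKFB4 lie left of 0 in BxPC3 and Panc327.

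In BxPC3 and Panc327, SLC2A1 transcripts went against those of most glycolytic enzymes. SLC2A1 (chr1:42925375-42959176, minus strand) read 415, 408 and 410 CPM with DMSO and 331, 357 and 342 with THZ1 in BxPC3. In Panc327 it read 426, 411 and 434 with DMSO and 318, 291 and 300 with THZ1. All THZ1 libraries lay below all DMSO libraries in both lines. The log2 fold change was -0.26 ± 0.04 in BxPC3 (adjusted p 3.95e-08) and -0.48 ± 0.04 in Panc327 (2.49e-18), and both falls passed under every alternative run. In SUIT2 the ranges overlapped (150 to 158 CPM with DMSO, 143 to 156 with THZ1; -0.04 ± 0.05, adjusted p 0.639).

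SLC2A3 could be judged only in Panc327, where it read 223, 232 and 220 CPM with DMSO and 192, 198 and 214 with THZ1. Its fall of -0.16 ± 0.05 (adjusted p 0.00453) did not pass with RLE size factors (-0.04), with DESeq2 (-0.04), without DMSO replicate 2 (-0.06) or without THZ1 replicate 1 (-0.13). BxPC3 had 5 counts with THZ1 and 1 with DMSO, a ratio of 7.47 (95% interval 0.836 to 353). The edgeR call of a rise there (adjusted p 0.0472) rests on those 6 counts and was lost without DMSO replicate 1 (2.06), DMSO replicate 3 (2.02) or THZ1 replicate 1 (1.77 on the log2 scale), with DESeq2 (2.84), library size only (2.12), no count filter (2.44) or a replicate block (2.47), and with only the lines compared (2.45). SUIT2 had 21 and 17 counts.

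The payoff and splitting steps of glycolysis rose by about the same amount in BxPC3 and Panc327. Of 15 glycolytic enzymes, 12 rose and 0 fell in BxPC3 (median 0.87), against 35.2% and 34.1% of all tested genes. In Panc327, 14 rose and 1 fell (median 0.90), against 35.6% and 37.8% of all. With library size only, 11 rose and 2 fell in BxPC3, and 12 rose and 2 fell in Panc327. GPI, ALDOA, TPI1, GAPDH, PGK1, PGAM1, ENO1 and PKM serve the steps from glucose 6-phosphate to pyruvate other than phosphofructokinase. Their fold changes were between 0.76 and 1.11 in both lines. PFKL and PFKM, the liver and muscle phosphofructokinases, rose by 0.79 ± 0.05 and 0.58 ± 0.06 in BxPC3 and by 0.90 ± 0.05 and 0.65 ± 0.07 in Panc327. PFKP made 48.7% ± 1.24 of that family's level per kilobase in BxPC3 with DMSO. It was 55.0 ± 2.53 CPM per kilobase with DMSO and 55.1 ± 3.37 with THZ1 there, but with library size only it was called lower (-0.39). In Panc327 PFKP went from 37.3 ± 0.479 to 43.3 ± 2.12 CPM per kilobase, a rise that library size only reversed (-0.11).

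GAPDH (chr12:6533927-6538374) read 5244, 5302 and 5354 CPM with DMSO and 11423, 11297 and 11670 with THZ1 in BxPC3. In Panc327 it went from 5842, 5789 and 5804 to 12038, 11806 and 10645. The groups lay far apart, with log2 fold changes of 1.11 ± 0.03 (adjusted p 6.33e-49) and 0.98 ± 0.03 (4.29e-45). In SUIT2 it was 4038, 4198 and 4132 with DMSO and 4527, 4339 and 4269 with THZ1, separate groups with a fold change of 0.09 ± 0.03 that did not pass (adjusted p 0.0653). GAPDH has 62 named processed pseudogenes, and reads that match several copies are not among these counts.

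TPI1, triosephosphate isomerase (chr12:6867119-6870948), read 885, 876 and 900 CPM with DMSO and 1716, 1671 and 1741 with THZ1 in BxPC3. In Panc327 it read 1088, 1079 and 1116 with DMSO and 2227, 2333 and 2095 with THZ1 (0.95 ± 0.04 and 1.02 ± 0.04). Its rise in SUIT2 was small (0.15 ± 0.04, adjusted p 0.00302) and was lost without THZ1 replicate 1 (0.11). ALDOC, on the minus strand at chr17:28573115-28577264, had the largest rise of the glycolytic genes in each line. It went from 9.86, 11.9 and 12.2 to 23.1, 27.6 and 26.7 CPM in BxPC3, a log2 fold change of 1.19 ± 0.11. In Panc327 it went from 30.7, 31.1 and 30.7 to 72.9, 65.0 and 63.9 (1.13 ± 0.08). It remained a minor aldolase, at 3.67% ± 0.259 of the aldolase level per kilobase in Panc327 with THZ1. Most exon bases of 4 members are shared with another annotated gene (84.5% for ALDOA, 62.9% for LDHB, 60.3% for IDH3A and 54.6% for PDK2), so their counts are uncertain.

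**Figure D3:**
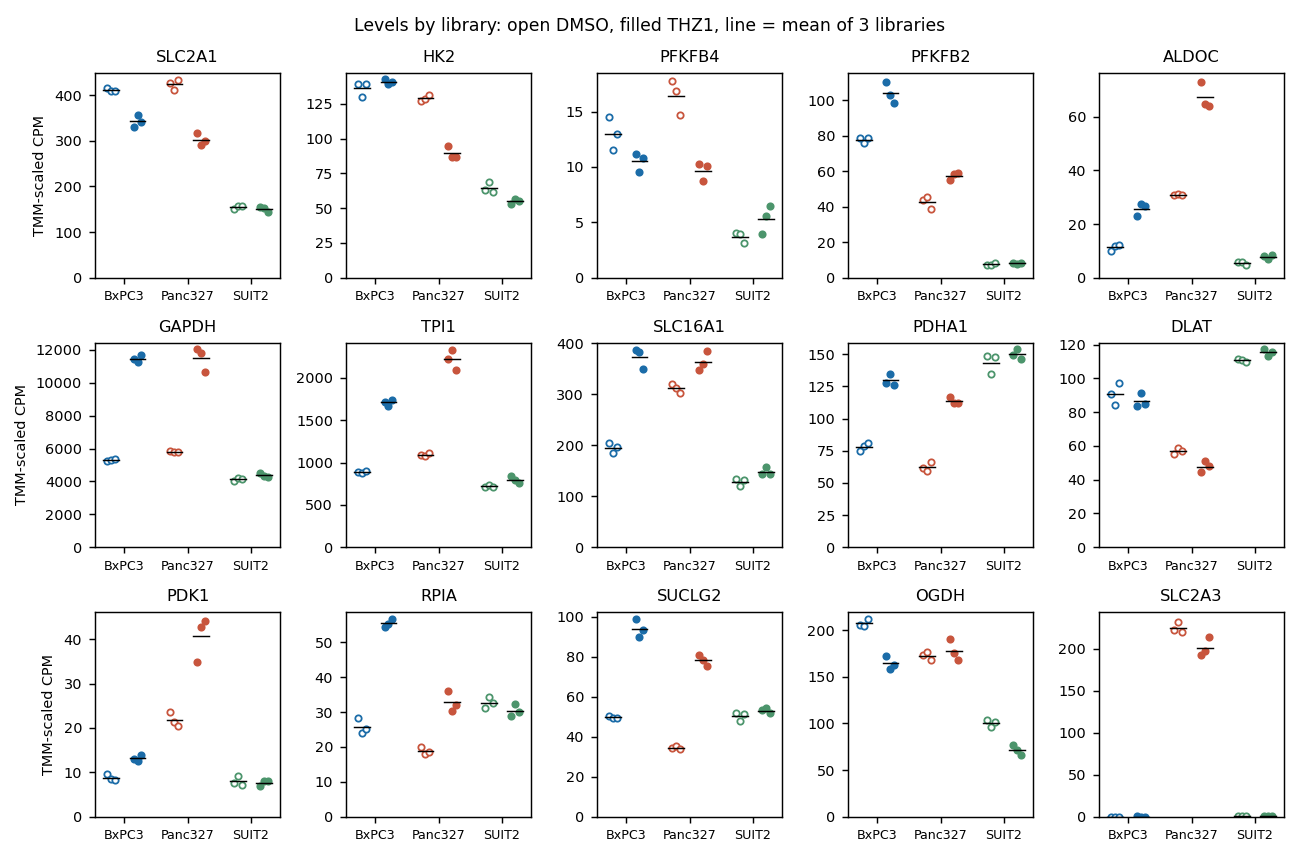
TMM-scaled CPM of 15 members in every library (points; open DMSO, filled THZ1; the line is the mean of 3), by line, each on its own axis from 0. GAPDH, TPI1 and SUCLG2 separate widely in BxPC3 and Panc327, SLC2A1 falls in both, HK2 falls in Panc327 (127 to 132 CPM against 86.8 to 94.9), and OGDH falls in BxPC3 and SUIT2.

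HK1 and HK2, the hexokinases among these genes, moved in opposite directions in Panc327. HK2, the hexokinase that tumours commonly induce (chr2:74833981-74893359), read 127, 128 and 132 CPM with DMSO and 94.9, 86.9 and 86.8 with THZ1 in Panc327, with no overlap (-0.52 ± 0.06, adjusted p 8.25e-14). In SUIT2 it read 63.0, 68.5 and 61.9 with DMSO and 53.3, 56.5 and 55.0 with THZ1 (-0.23 ± 0.06, adjusted p 0.00664), a call lost without DMSO replicate 2 (-0.19). In BxPC3 the groups overlapped (130 to 139 against 139 to 143 CPM; 0.05 ± 0.05), but with library size only HK2 was called lower there (-0.35). HK1, the constitutive hexokinase, rose by 0.31 ± 0.05 in BxPC3 and 0.45 ± 0.05 in Panc327, although in BxPC3 its fold change was -0.09 with library size only.

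Ratios of 2 related genes within a library do not depend on how libraries are scaled. In all, 14 pairs were compared in 3 lines, of isoenzymes, of transporters and, for SUCLG2 and SUCLG1, of subunits. In 4 pairs the 3 THZ1 libraries lay on the same side of the 3 DMSO libraries in every line, each with an exact permutation p of 0.1, the smallest possible. The HK2 to HK1 ratio changed by -0.26 on the log2 scale in BxPC3, -0.97 in Panc327 and -0.29 in SUIT2. In Panc327 its libraries read 0.13, 0.18 and 0.18 with DMSO and -0.81, -0.88 and -0.73 with THZ1. HK2 thus went from 46.8% ± 0.450 to 31.0% ± 1.11 of the hexokinase level per kilobase. The PFKP to PFKL ratio changed by -0.79, -0.68 and -0.30 in the same order of lines. PFKL, the liver-type phosphofructokinase, went from 37.6% ± 1.52 to 48.5% ± 1.39 of that family's level per kilobase in BxPC3.

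The other 2 pairs were in the PFK-2 and lactate dehydrogenase families. The PFKFB3 to PFKFB2 ratio changed by -0.66, -0.62 and -0.21. The LDHB to LDHA ratio changed by 0.49 in BxPC3, 0.49 in Panc327 and 0.03 in SUIT2. Its libraries read 0.04, 0.01 and 0.03 with DMSO and 0.50, 0.46 and 0.58 with THZ1 in BxPC3, where the change far exceeded the spread. In SUIT2 they read -0.34, -0.33 and -0.35 with DMSO and -0.31, -0.31 and -0.29 with THZ1, apart by little more than the spread. The ENO2 to ENO1 ratio changed by -0.70 in BxPC3 and -0.47 in Panc327, with separate libraries, and by 0.16 with overlapping ones in SUIT2.

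**Figure D4:**
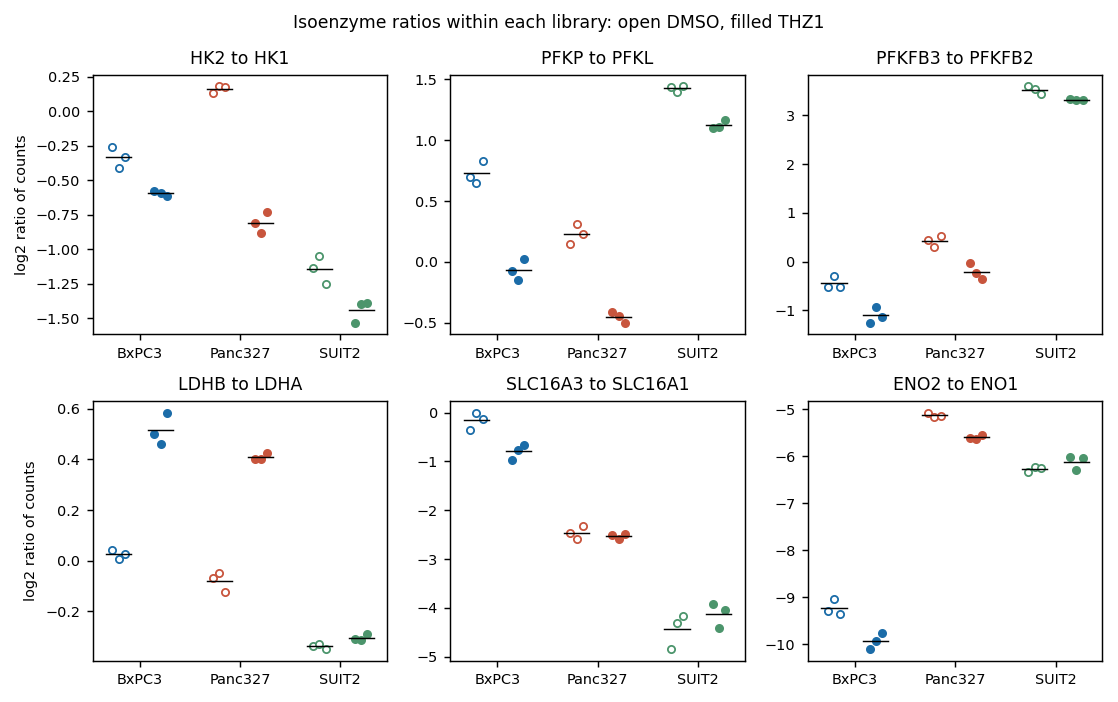
Log2 ratio of the counts of 2 isoenzymes in each library (open DMSO, filled THZ1, line at the mean of 3), for 6 pairs by line. HK2 to HK1, PFKP to PFKL and PFKFB3 to PFKFB2 are lower with THZ1 in all 3 lines, and LDHB to LDHA is higher by 0.49 in BxPC3 and in Panc327.

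The PFK-2 enzymes, which make and break the allosteric activator of phosphofructokinase, moved apart. PFKFB2 (chr1:207034366-207081024) rose from 78.5, 75.9 and 78.6 to 110, 103 and 98.7 CPM in BxPC3. In Panc327 it rose from 43.8, 45.3 and 38.7 to 55.0, 58.6 and 59.0. The groups did not overlap in either line (0.42 ± 0.06 and 0.43 ± 0.07), but with library size only neither passed (0.02 and 0.10). PFKFB4 (chr3:48517684-48562015, minus strand) fell in Panc327 from 17.7, 16.8 and 14.7 to 10.2, 8.69 and 10.1 CPM (-0.76 ± 0.14, adjusted p 1.86e-06). It was -0.30 ± 0.14 in BxPC3 (adjusted p 0.0567) and 0.53 ± 0.20 in SUIT2 (0.0642), where DMSO libraries read 4.01, 3.91 and 3.09 CPM and THZ1 libraries 3.92, 5.55 and 6.48. With library size only, PFKFB4 was called lower in BxPC3 (-0.70). PFKFB3 fell in BxPC3 (-0.25 ± 0.07). Its fall in Panc327 (-0.18 ± 0.07) was lost with RLE size factors (-0.07), with DESeq2 (-0.07), and without DMSO replicate 1 (-0.15), DMSO replicate 2 (-0.12), THZ1 replicate 2 (-0.18) or THZ1 replicate 3 (-0.12).

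In the lactate group, LDHB and LDHA, which interconvert pyruvate and lactate, rose unequally. LDHB went from 713, 654 and 698 to 1170, 1139 and 1201 CPM in BxPC3 and from 1068, 1128 and 1080 to 1832, 1803 and 1790 in Panc327 (0.77 ± 0.04 and 0.73 ± 0.04). LDHA rose by 0.28 ± 0.04 and 0.24 ± 0.03, but with library size only its fold change was -0.12 in BxPC3 and -0.09 in Panc327. SLC16A1 (MCT1, which carries lactate in either direction; chr1:112911847-112957013, minus strand) read 203, 184 and 197 CPM with DMSO and 387, 383 and 350 with THZ1 in BxPC3, well apart (0.94 ± 0.05). In Panc327 it read 319, 311 and 303 with DMSO and 348, 358 and 384 with THZ1. That rise of 0.22 ± 0.05 became -0.10 with library size only. In SUIT2 it rose by 0.20 ± 0.05 (adjusted p 0.00334), lost without DMSO replicate 2 (0.15) or THZ1 replicate 2 (0.16). SLC16A3 rose by 0.30 ± 0.06 in BxPC3, where library size only gave -0.09.

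Pyruvate dehydrogenase subunits did not move as a unit. PDHA1, the E1 alpha subunit (chrX:19343893-19361705), read 74.5, 78.8 and 80.8 CPM with DMSO and 128, 135 and 126 with THZ1 in BxPC3. In Panc327 it read 61.7, 59.2 and 66.6 with DMSO and 117, 112 and 112 with THZ1 (0.73 ± 0.06 and 0.86 ± 0.06). PDHB, the E1 beta subunit that pairs with it, rose by 0.65 ± 0.08 in Panc327. In BxPC3 it was 0.17 ± 0.08 (adjusted p 0.0389), lost without DMSO replicate 2 (0.17), DMSO replicate 3 (0.15), THZ1 replicate 1 (0.12) or THZ1 replicate 3 (0.16), with a replicate block (0.17) and without the count filter (0.14), and -0.23 with library size only. DLAT, the E2 core (chr11:112024814-112064390), read 55.0, 58.9 and 57.1 CPM with DMSO and 44.6, 50.9 and 47.9 with THZ1 in Panc327. Its fall there (-0.26 ± 0.07) was lost with RLE size factors (-0.14), with DESeq2 (-0.14) and without DMSO replicate 2 (-0.15). BxPC3 DLAT ranges overlapped (-0.06 ± 0.06), but with library size only DLAT was called lower there (-0.46).

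The kinases that inactivate the complex rose where they were called. PDK1 (chr2:172555373-172608669) went from 9.61, 8.48 and 8.20 to 13.0, 12.6 and 14.0 CPM in BxPC3 (0.59 ± 0.14). In Panc327 it went from 23.5, 21.3 and 20.5 to 34.9, 42.8 and 44.2 (0.89 ± 0.10). PDK3 rose by 0.46 ± 0.11 and 0.82 ± 0.15. With library size only, neither kinase passed in BxPC3 (0.19 and 0.07). PDK2 rose in Panc327 (0.39 ± 0.14) with overlapping libraries, and not without THZ1 replicate 1 (0.29) or with library size only (0.07).

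In the pentose phosphate pathway, 4 of 6 members rose in BxPC3, 5 in Panc327 and 0 in SUIT2, and 0 fell in any line. Over all tested genes, 35.2%, 35.6% and 6.95% rose and 34.1%, 37.8% and 7.64% fell, in the same order of lines. With so few members, 0 calls in SUIT2 are near those shares. With library size only, 2 members fell in BxPC3 and 1 in Panc327. RPIA, which makes ribose 5-phosphate (chr2:88691644-88750935), read 28.4, 24.0 and 25.2 CPM with DMSO and 54.2, 55.3 and 56.6 with THZ1 in BxPC3. In Panc327 it read 19.95, 18.01 and 18.56 with DMSO and 35.9, 30.2 and 32.2 with THZ1. The groups were well apart in both (1.10 ± 0.08 and 0.80 ± 0.10) and overlapped in SUIT2 (31.1 to 34.3 against 28.9 to 32.4 CPM; -0.11 ± 0.08). Its partners of the non-oxidative branch, TALDO1 (transaldolase) and TKT (transketolase), rose by 0.86 ± 0.06 and 0.47 ± 0.04 in BxPC3. TKT did not pass there with library size only (0.07). RPE, the epimerase of that branch, was called in no line (0.06 ± 0.08, 0.09 ± 0.09 and 0.14 ± 0.07). With library size only, RPE was called lower in BxPC3 (-0.34) and Panc327 (-0.23). PGLS, the lactonase, rose in Panc327 (0.47 ± 0.09), where it did not pass with library size only (0.15), and was 0.04 ± 0.09 in BxPC3, where that setting called it lower (-0.35). PGD, the NADPH-making 6-phosphogluconate dehydrogenase, rose by 0.65 ± 0.05 in BxPC3 and 0.40 ± 0.04 in Panc327, and in Panc327 it did not pass with library size only (0.07).

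In the TCA cycle 9 of 11 members rose and 1 fell in both BxPC3 (median 0.75) and Panc327 (median 0.61). The shares of all tested genes were 35.2% and 34.1% in BxPC3 and 35.6% and 37.8% in Panc327. In SUIT2, 2 members rose and 1 fell, against 6.95% and 7.64% of all. With library size only, 2 fell in BxPC3 and 2 in Panc327. SUCLG2, the GTP-forming subunit of succinyl-CoA ligase (chr3:67360460-67654614, minus strand), went from 50.3, 49.5 and 49.2 to 98.9, 89.6 and 93.5 CPM in BxPC3. In Panc327 it went from 34.3, 35.3 and 33.9 to 81.0, 78.4 and 75.2 (1.18 ± 0.07), against 0.92 ± 0.06 in BxPC3, with no overlap in either line. MDH2, the mitochondrial malate dehydrogenase, rose by 0.97 ± 0.04 and 0.99 ± 0.04. The other rises, of CS, IDH3B, IDH3G, DLST, SUCLG1, FH and MDH1, were 0.50 to 0.80 in BxPC3 and 0.36 to 0.85 in Panc327, where FH, the fumarase, did not pass with library size only (0.04). OGDH, the E1 subunit of the 2-oxoglutarate dehydrogenase complex (chr7:44606572-44709066), went the other way. It read 206, 205 and 212 CPM with DMSO and 173, 158 and 162 with THZ1 in BxPC3 (-0.34 ± 0.05, adjusted p 6.31e-09). In SUIT2 it read 103, 96.6 and 102 with DMSO and 77.2, 71.8 and 66.2 with THZ1 (-0.49 ± 0.06, adjusted p 1.88e-10), with no overlap in either line. In Panc327 its ranges overlapped (168 to 177 against 168 to 190 CPM; 0.05 ± 0.05), but with library size only it was called lower there too (-0.28). DLST, the E2 subunit of the same complex, rose in all 3 lines, by 0.64 ± 0.05 in BxPC3, 0.47 ± 0.05 in Panc327 and 0.27 ± 0.05 in SUIT2. IDH3A, the catalytic subunit of isocitrate dehydrogenase, fell in Panc327 (-0.23 ± 0.07), a call lost with RLE size factors (-0.11), with DESeq2 (-0.11) and without DMSO replicate 2 (-0.11), while its partners IDH3B and IDH3G rose there by 0.71 ± 0.06 and 0.59 ± 0.08.

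The SUIT2 calls ran from -0.49 (OGDH) to 0.52 (ALDOC) on the log2 scale. PKM (0.13 ± 0.03), DLST and OGDH passed under every alternative run. ALDOC (0.52 ± 0.16) was lost without DMSO replicate 3 (0.43), THZ1 replicate 1 (0.49) or THZ1 replicate 3 (0.48). SLC16A3 (0.51 ± 0.17) was lost with limma voom (0.52) and without DMSO replicate 1 (0.36), DMSO replicate 2 (0.50), THZ1 replicate 1 (0.42) or THZ1 replicate 3 (0.49). PFKP, which fell by 0.16 on the log2 scale, was lost without DMSO replicate 2 (-0.12) or THZ1 replicate 3 (-0.13). PFKL (0.14 ± 0.05) and MDH1 (0.15 ± 0.05) were lost under most alternatives.

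The responses of the lines were compared by the difference of their fold changes. Against SUIT2, the BxPC3 response was higher for 33 members and lower for 2 (27.3% and 27.6% of all genes), and the Panc327 response was higher for 34 and lower for 5 (28.3% and 32.4%). These comparisons share SUIT2 libraries. Between BxPC3 and Panc327 the response was higher for 7 members and lower for 5 (22.2% and 14.1%). The count of 5 was 2 without Panc327 THZ1 replicate 1 and 9 without Panc327 DMSO replicate 2, and that of Panc327 against SUIT2 was 3 without Panc327 DMSO replicate 2. Among the members that passed, SLC16A1 had the largest such difference, 0.72 ± 0.07 on the log2 scale (adjusted p 3.35e-16), followed by HK2 at 0.57 ± 0.08, while that of SLC2A3 (2.63 ± 1.14), which rests on few counts in BxPC3, did not pass (adjusted p 0.0625). OGDH differed by -0.38 ± 0.07 between BxPC3 and Panc327, and by 0.53 ± 0.08 between Panc327 and SUIT2. The PFKFB4 response was lower than in SUIT2 by 1.29 ± 0.25 in Panc327 (adjusted p 4.28e-06), although it passed in neither BxPC3 nor SUIT2 alone.

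Other genes of these pathways also rose more often than they fell in BxPC3 and Panc327. Of 48 listed genes 41 were tested. In BxPC3 28 rose and 7 fell, or 68.3% and 17.1%, against 35.2% and 34.1% of all tested genes. In Panc327 28 rose and 5 fell, or 68.3% and 12.2%, against 35.6% and 37.8%. In SUIT2 4 rose and 2 fell, or 9.76% and 4.88%, near the 6.95% and 7.64% of all genes. Their median log2 fold change was 0.43, 0.55 and 0.09. BSG, the chaperone that carries SLC16A1 and SLC16A3 to the membrane, rose from 457 ± 4.22 to 933 ± 8.67 CPM in Panc327 and by 1.09 ± 0.04 in BxPC3. MPC2, a subunit of the mitochondrial pyruvate carrier, rose from 17.1 ± 2.51 to 35.9 ± 1.82 CPM in BxPC3. The phosphatases that reactivate pyruvate dehydrogenase fell in these 2 lines, where PDK1 and PDK3 rose. PDP2 went from 31.6 ± 0.865 to 14.6 ± 2.04 CPM in BxPC3 (-1.12 ± 0.11) and from 26.5 ± 0.818 to 9.45 ± 1.49 in Panc327 (-1.50 ± 0.13), and PDP1 went from 85.9 ± 1.40 to 29.8 ± 3.14 in Panc327 (-1.53 ± 0.08) and fell by 0.38 on the log2 scale in BxPC3. In SUIT2, PDPR, the regulatory subunit of that phosphatase, rose by 0.28 ± 0.06, and H6PD, the reticulum form of glucose 6-phosphate dehydrogenase, fell by 0.31 on the log2 scale.

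Of 18 genes of the hypoxia response, 11 rose and 2 fell in BxPC3 (35.2% and 34.1% of all tested genes). In Panc327 9 rose and 7 fell, or 50.0% and 38.9%, against 35.6% and 37.8% of all, so the share that fell was near that of all genes. In SUIT2 2 rose and 0 fell, against 6.95% and 7.64% of all. NDRG1 rose from 69.3 ± 1.77 to 176 ± 7.88 CPM in Panc327 and by 0.39 ± 0.07 in SUIT2, and CA9, a carbonic anhydrase, rose from 25.5 ± 2.23 to 60.1 ± 3.79 CPM in Panc327. ADM, adrenomedullin, fell there from 149 ± 2.32 to 20.9 ± 2.25 CPM. EGLN3, a prolyl hydroxylase that marks hypoxia-inducible factors for decay, rose from 2.19 ± 0.635 to 9.91 ± 1.35 CPM in BxPC3, while HIF1AN, which also hydroxylates them, fell from 79.9 ± 1.64 to 38.3 ± 3.52. EGLN2, another prolyl hydroxylase, fell in BxPC3 and Panc327, although 66.6% of its exon bases are shared with other annotated genes.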

How the data were processed

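Each of the 18 deposited files gives 1 library as raw read counts by gene symbol. Per the submitters' processing notes, bcl2fastq 1.8.4, TopHat2 2.1.0 and HTSeq 0.6.1 were used on hg38; which annotation, strand setting or counting mode was chosen is not given in the sources used here. Summary entries of the counter (21.3% to 64.6% of records) were left out. No 2 libraries of a group were copies of the same counts (chi-square per gene 1.25 to 2.53). This does not show whether they came from separate cultures.

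Counts were fitted in R 4.3.3 with edgeR 4.0.16: filterByExpr (minimum count 10, minimum total 15), TMM, 6 group means (12 residual degrees of freedom) and the robust quasi-likelihood test. A call needed an adjusted p (Benjamini-Hochberg, all 14011 genes) below 0.05, so that "rose" and "fell" mean called. The SE of a log2 fold change is its size divided by the square root of F, and levels are given with SD (n = 3). Ratios of gene pairs are log2 ratios of counts with 0.5 added, tested by exact 2-sided permutation. Exon lengths and positions are from GENCODE 29 (GRCh38). Alternatives were DESeq2 1.42.0, limma 3.58.1 (voom), RLE size factors, scaling to library size only, no count filter, a replicate block, a fit of only the lines compared, and leaving out each library.

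The members and lists were chosen with earlier results of these data known. All 47 members could be named. Values per library are given for called members with a log2 change of at least 1 and for the largest rise and fall of each role in any line. Differences of responses name 3 members per direction, DMSO comparisons 4, and other lists 2, leaving out some with few counts or calls that rest on 1 library; 14 pairs were listed in the design. Members outside these rules are named with their values.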

Additional observations from a re-analysis of the deposited data

Results flagged for a closer look

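Some members responded differently in 2 lines, by edgeR's test of the difference between their log2 fold changes with adjustment over all genes. BxPC3 exceeded Panc327 by 0.72 for SLC16A1, 0.57 for HK2 and 0.43 for FH, and was below it by -0.48 for PDHB, -0.43 for PGLS and -0.38 for OGDH. The PGLS difference was lost without Panc327 THZ1 replicate 1 (-0.32). BxPC3 exceeded SUIT2 by 1.21 for RPIA, 1.03 for GAPDH and 0.89 for PGK1, with -0.84 for PFKFB4 and -0.22 for SLC2A1. Panc327 exceeded SUIT2 by 1.10 for SUCLG2, 0.94 for PDK1 and 0.91 for RPIA, with -1.29 for PFKFB4, -0.44 for SLC2A1 and -0.32 for DLAT. The DLAT difference was lost with RLE size factors (-0.20), with DESeq2 (-0.20) and without Panc327 DMSO replicate 2 (-0.21). The adjusted p of these 17 differences ran from 3.22e-34 for GAPDH to 0.0045 for PGLS.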

How the results depend on the processing

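Scaling was the choice that moved most values. With library size only, members called lower were 12 in BxPC3 and 13 in Panc327, and 10, 13 and 9 for the differences BxPC3 minus Panc327, BxPC3 minus SUIT2 and Panc327 minus SUIT2. Genes called higher were then 2601, 3170, 1820 (BxPC3 minus SUIT2, with 6158 lower) and 2338 (Panc327 minus SUIT2). That setting reversed HK1 (-0.086), LDHA (-0.12), SLC16A3 (-0.094) and PDHB (-0.23) in BxPC3, and PFKP (-0.11), ENO2 (-0.038), LDHA (-0.088) and SLC16A1 (-0.10) in Panc327. It also reversed the list medians of pyruvate dehydrogenase in BxPC3 (-0.23) and lactate in Panc327 (-0.095). With DESeq2, members called lower were 3 in Panc327, 9 for BxPC3 minus Panc327 and 2 for Panc327 minus SUIT2, and 603 genes were called higher in SUIT2. With RLE size factors the 3 member counts were 3, 11 and 2.

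Leaving out 1 library at a time gave 3 to 7 members lower in Panc327, 5 to 7 higher and 1 to 3 lower in SUIT2 with 642 to 790 genes higher, 2 to 9 members lower for BxPC3 minus Panc327 and 3 to 6 for Panc327 minus SUIT2. Over those sets, 4 ratio changes of gene pairs crossed 0: SLC2A3 to SLC2A1 in SUIT2 (-0.10 to 0.73), SLC16A3 to SLC16A1 in Panc327 (-0.13 to 0.0030), SUCLG2 to SUCLG1 in SUIT2 (-0.034 to 0.045) and MDH2 to MDH1 in SUIT2 (-0.14 to 0.0041). None of these had separate groups. The causes were not tested, apart from fewer libraries.

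Replicate numbers did not pair the libraries: deviations of DMSO and THZ1 libraries correlated by -0.09 to 0.08 over genes. With a replicate block, members higher and lower were 33 and 3 in BxPC3, 38 and 7 in Panc327, and 8 and 3 in SUIT2. With 5 or fewer counts, as for SLC2A3 in BxPC3, no change can be judged at this depth.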
